A study of Mus musculus with 12 samples.

Results

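Hox genes and a set of other developmental transcription factors and signals were followed through a TGFb stimulus and a knockdown of the histone demethylase JMJD3 in mouse neural stem cells. The members are the genes whose array name is Hox followed by a cluster letter and a number, together with Gata4, Gata6, Foxa2, Pax2, Pax7, Lhx1, Tbx3, Tbx5, Wnt1, En1, Nkx2-1, Dlx1, Dlx2, Dlx5, Sox17, Isl1, Osr2, Foxc1 and Prrx1. They came to 59 genes on 71 probes, of 31896 genes on 39429 probes. The Hox name also took in Hoxa11as, a transcript antisense to Hoxa11, so 39 of the members are Hox genes proper. Binding by Polycomb proteins was not measured in these samples, and the members were grouped by what is known of them from elsewhere.

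The cells were neural stem cells from the cerebral cortex of mouse embryos at E12.5. Both lines were stable transfectants, the control with a random shRNA and the knockdown with the shRNA sh2 against JMJD3. Each line received either vehicle or TGFb at 5 ng/ml for 2.5 h, and each of the 4 groups had 3 samples. With 1 hairpin and 1 line for the knockdown, an effect of the knockdown and any other difference between the lines cannot be told apart. Whether the 3 samples of a group were separate cultures is not given, so each p-value reflects the scatter of these samples, and that scatter may be technical only.

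Hox genes encode homeodomain proteins that set position along the body axis, and they lie in 4 clusters in which the order of the genes follows the order of their expression from head to tail. In cells that do not use them, such genes are typical targets of Polycomb repressive complexes, of which PRC2 methylates lysine 27 of histone H3 and PRC1 binds and compacts the marked chromatin. JMJD3, the product of Kdm6b, removes that methyl mark. The developing cerebral cortex lies in front of the Hox-expressing part of the neural tube.

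Values are log2 signals relative to the 75th percentile of all gene probes on the same array, so 0 marks that percentile and each unit is a doubling. A gene was called detected in a group when a probe was well above background on all 3 arrays, and silent when no probe was on any of them. Kdm6b measured -0.84, -0.73 and -0.75 in control cells with vehicle and -0.67, -0.69 and -0.59 in control cells with TGFb. In the knockdown line it measured -1.95, -1.90 and -1.96 with vehicle and -2.01, -2.12 and -2.01 with TGFb. It was lower in the knockdown by -1.16 ± 0.05 (SE, adjusted p = 1.05e-07) without TGFb and by -1.40 ± 0.05 (adjusted p = 2.85e-08) with it. Of 12 markers of cortical neural stem cells, 11 were detected in all 4 groups, among them Sox2, Nes and Fabp7. Emx1, a dorsal cortical factor, was detected in 3 groups and well above background on 1 array of control cells with TGFb.

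Promoter sequence was available for 35 of the 59 members, in 41 windows of 300 bases (250 before and 50 after a start site, RefSeq, GRCm38.p6). The windows held a median of 20 CpG dinucleotides, with a range from 4 to 45, against a median of 7 over all 32851 windows. The CpG counts of detected and silent members overlapped. The 21 windows of members detected in all 4 groups had a median of 20 and a range from 4 to 41, and the 13 windows of silent members had a median of 13 and a range from 4 to 37. The 250 bases before the start are shown for Hoxb4, Hoxb8 and Hoxa2, which were higher in the knockdown line, and for Hoxb1 and Hoxd13, which were silent on every array. They run 5′ to 3′ on the strand of the gene, with CpG dinucleotides in capitals.
Hoxb4 (chr11:96318017-96318266, plus strand): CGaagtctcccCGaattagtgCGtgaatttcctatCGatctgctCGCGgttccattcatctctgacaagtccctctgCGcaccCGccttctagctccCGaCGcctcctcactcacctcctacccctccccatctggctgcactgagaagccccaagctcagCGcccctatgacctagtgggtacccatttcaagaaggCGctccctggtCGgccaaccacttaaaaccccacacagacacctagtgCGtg
Hoxb8 (chr11:96281655-96281904, plus strand): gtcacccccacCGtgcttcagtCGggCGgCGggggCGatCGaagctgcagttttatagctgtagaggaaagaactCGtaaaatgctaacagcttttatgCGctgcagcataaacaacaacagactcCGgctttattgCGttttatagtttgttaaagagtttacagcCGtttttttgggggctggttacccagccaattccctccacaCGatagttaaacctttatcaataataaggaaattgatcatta
Hoxa2 (chr6:52164832-52165081, minus strand): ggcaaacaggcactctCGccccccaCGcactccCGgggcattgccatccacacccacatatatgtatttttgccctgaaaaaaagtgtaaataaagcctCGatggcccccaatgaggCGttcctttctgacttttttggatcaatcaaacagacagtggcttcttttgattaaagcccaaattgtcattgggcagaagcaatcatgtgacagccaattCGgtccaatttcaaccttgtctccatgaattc
Hoxb1 (chr11:96365508-96365757, plus strand): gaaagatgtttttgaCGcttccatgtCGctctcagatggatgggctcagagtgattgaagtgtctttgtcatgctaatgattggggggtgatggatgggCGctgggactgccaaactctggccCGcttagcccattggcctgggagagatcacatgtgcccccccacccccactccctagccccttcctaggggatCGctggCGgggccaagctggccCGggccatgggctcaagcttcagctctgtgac
Hoxd13 (chr2:74667975-74668224, plus strand): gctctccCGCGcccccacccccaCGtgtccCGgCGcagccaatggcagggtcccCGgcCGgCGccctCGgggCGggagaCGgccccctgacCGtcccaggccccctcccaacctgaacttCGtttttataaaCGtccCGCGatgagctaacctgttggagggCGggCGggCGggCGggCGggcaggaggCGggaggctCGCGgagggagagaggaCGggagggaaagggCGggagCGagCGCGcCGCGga
Hoxb4 and Hoxb1 lie in the same cluster, and their windows of 300 bases held 14 and 10 CpG dinucleotides. The window of Hoxd13, whose probe was not well above background on any array, held 37. The letters CAGAC or their reverse complement GTCTG, a short element known from promoters that SMAD proteins bind, occurred in 18 of the 41 member windows (43.9%) and in 49.6% of all windows.

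The members split between genes on in every group and genes off in every group. All 4 groups detected 32 members, 5 were detected in some groups only, 8 were well above background on scattered arrays without filling a group, and 14 were silent on all 12 arrays. By group, 37 members (62.7%) were detected in control cells with vehicle, 34 (57.6%) in control cells with TGFb, 34 (57.6%) in knockdown cells with vehicle and 36 (61%) in knockdown cells with TGFb. Over all genes on the array the shares were 73.9%, 72.1%, 69.4% and 73.5%. The share of all probes well above background moved with these counts, from 70.2% on knockdown vehicle replicate 3, where 34 members were well above background, to 78.4% on control vehicle replicate 1, where 40 were. Without that knockdown array the group's count was 37, but detection then asked for fewer arrays, so the count could only stay or rise. It is therefore not comparable with the counts of the other groups. The part of the share of probes well above background in the differences between groups was not tested.

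**Figure D1:**
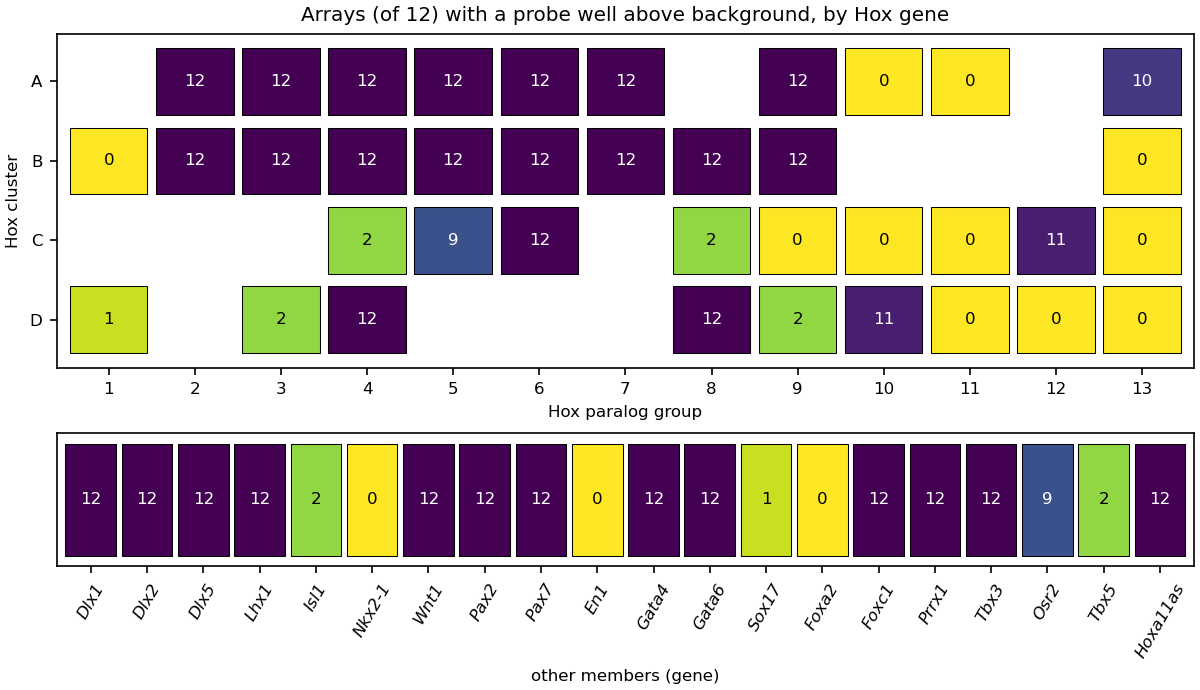
Number of arrays, of 12, on which at least 1 probe of each member was well above background, by Hox cluster and paralog group (upper panel) and for the other members (lower panel). Empty positions carry no member or are not shown. Most HoxA and HoxB genes up to paralog group 9 reach 12 arrays, while most genes of groups 10 to 13 are at 0.

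Among Hox genes, detection followed the position in the cluster and the cluster itself. In HoxA 8 of 11 genes and in HoxB 8 of 10 genes were detected in all 4 groups, against 1 of 9 in HoxC and 2 of 9 in HoxD. By paralog group, 8 of 12 anterior genes (groups 1 to 4), 9 of 11 central genes (groups 5 to 8) and 2 of 16 posterior genes (groups 9 to 13) were detected in all 4 groups. The posterior genes detected throughout were Hoxa9 and Hoxb9. Silent on all 12 arrays were Hoxb1, Hoxa10, Hoxa11, Hoxb13, Hoxc9, Hoxc10, Hoxc11, Hoxc13, Hoxd11, Hoxd12 and Hoxd13. Hoxb1, an early hindbrain gene, was thus off while its neighbour Hoxb2 was detected in every group. The probes of the silent members lay between -11.01 and -8.55 on the 12 arrays, at or near the floor of the measurement.

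Silence was also seen in Nkx2-1, which specifies the ventral forebrain, in En1, which marks the boundary of midbrain and hindbrain, and in Foxa2, a factor of the floor plate and endoderm. Nkx2-1, En1, Hoxa11 and Hoxb1 were each printed 10 times on the array, and their averaged spots stayed below the threshold on all 12 arrays. Isl1, a motor neuron factor that was also printed 10 times, was well above background on 1 array of each knockdown group. Hoxc4, Hoxc8, Hoxd1, Hoxd3, Hoxd9, Sox17 and Tbx5 were well above background on 1 or 2 arrays each. Of these, Hoxd3 was seen on 2 arrays of knockdown cells with vehicle, and Hoxd9 on 2 arrays of control cells with vehicle.

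Markers of other cells were read beside the Hox genes. In a list for hindbrain and spinal cord, Egr2 (Krox20) and Hoxb4 were detected in all 4 groups and Hoxc8 was not. In a list for fibroblasts and meninges, Col1a1, Col1a2, Dcn and Foxc1 were detected throughout, Twist1 and Foxd1 were silent on all 12 arrays, and Lum was seen on 1 array. Of 4 neural crest and Schwann cell markers, Sox10 and Ngfr were detected in all 4 groups and Foxd3 was silent. Of 4 endothelial markers, Pecam1 and Kdr were detected in all 4 groups, Kdr at -1.35 ± 0.28 in control cells with vehicle, while Cdh5 and Tie1 were silent. Of 4 microglial and blood markers, Hba-a1 was detected in all 4 groups, Ptprc in 3 and Cx3cr1 in 2, and Aif1 was silent. None of the tested markers of these 3 lists was called in any of the 5 limma comparisons, with 0 at an unadjusted p under 0.05. Whether other cells contributed to the Hox signal was not tested, and in such bulk samples more expressing cells and more RNA per cell cannot be told apart.

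Some genes were read by several probes that differed. For Lhx1 the means in control cells with vehicle were -5.45 ± 0.17 (SD, n = 3) and -10.61 ± 0.23, and for Wnt1 they were -2.31 ± 0.22 and -7.43 ± 0.35. Detection of Lhx1 rests on 1 probe, since the other was not well above background on any array. The same held for Hoxa13, whose probes averaged -8.23 ± 0.42 and -10.82 ± 0.17 in control cells with vehicle. Hoxa11as was detected on all 12 arrays, with a mean of -6.23 ± 0.14 in control cells with vehicle, while the probe of its sense partner Hoxa11 stayed silent.

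The filter on dim probes left 37 of the 59 members for testing. For a member that passed only through a group where it was high, the filter itself favoured a difference. Of the 37, 17 were called in at least 1 comparison and 20 in none. The matching share of all genes was not counted, so these numbers are not a result about the members. In the comparisons of the lines alone, 27.8% of all genes were called without TGFb and 29% with it. The question put to each comparison was which members changed with TGFb or with the knockdown.

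**Figure D2:**
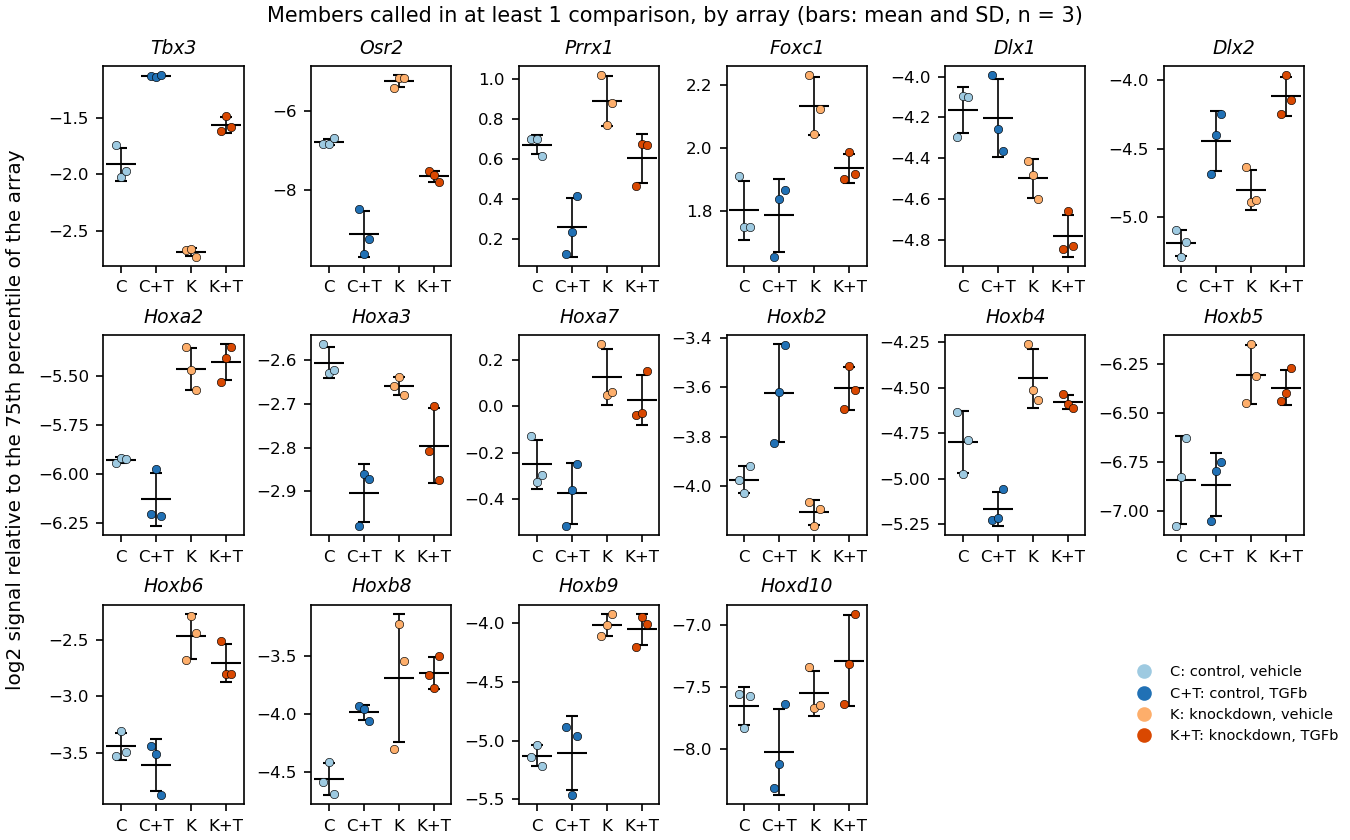
Log2 signal relative to the 75th percentile of each array for 16 members called in at least 1 comparison, by array, with group means and SD (n = 3). The axes differ between panels. Osr2 and Tbx3 move with TGFb in both lines, and Hoxb6 and Hoxb9 sit higher on all knockdown arrays.

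TGFb changed few of the members. In control cells 6 of 37 members (16.2%) were called, against 10.2% of all 24146 genes tested, with 3 higher (5.43% of all genes) and 3 lower (4.72%). In knockdown cells 4 of 37 (10.8%) were called, against 9.49% of all genes, with 3 higher (4.74% of all genes) and 1 lower (4.75%). The treated and vehicle arrays did not overlap for 10 members in control cells and 9 in knockdown cells, against 22% and 24% of all genes. The median change of the members was -0.02 in the control line and 0.03 in the knockdown line, beside -0.01 and -0.02 over all genes. The genes called were Osr2, Tbx3, Dlx2, Prrx1, Hoxa3 and Hoxb2. Of 23 Hox genes tested, 1 rose in each line, and 1 fell in control cells.

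Osr2, a zinc finger factor of palate and limb mesenchyme, fell most. Its probe, which spans chr15:35230691-35231706 (mm9), read -6.84, -6.84 and -6.70 in control cells with vehicle and -8.50, -9.63 and -9.26 with TGFb, where it was not well above background on any array. In knockdown cells it read -5.43, -5.17 and -5.17 with vehicle and -7.54, -7.63 and -7.82 with TGFb. Neither pair of groups overlapped. Col1a1, a fibroblast collagen gene, moved the other way and rose by 1.11 ± 0.11 and 1.27 ± 0.11, while Col1a2, Dcn and Foxc1 were not called, and the part of such cells was not tested. In control cells the fitted change was -2.34 ± 0.25 (adjusted p = 6.49e-05). Since no treated array was well above background there, a bound was set on these signals, at least 3.05-fold lower. For this bound each treated array entered at the dimmest signal that any probe well above background had there, or at the Osr2 signal where that was higher. In knockdown cells the change was -2.41 ± 0.25 (adjusted p = 5.83e-05). With normexp background correction the change in control cells was -0.35, with an adjusted p of 0.069, so the bound does not hold under that correction.

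Tbx3, a T-box repressor of limb and heart development, rose in both lines. The signals in control cells were -1.74, -2.03 and -1.97 with vehicle and -1.13, -1.13 and -1.12 with TGFb. In knockdown cells they were -2.67, -2.67 and -2.73 with vehicle and -1.62, -1.48 and -1.58 with TGFb. Every treated array was above every vehicle array of its line. The rise was 0.79 ± 0.07 (adjusted p = 1.82e-05) in control cells and 1.13 ± 0.07 (adjusted p = 1.04e-06) in knockdown cells. The probe lies at chr5:120134511-120134570 (mm9).

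Dlx2, a homeobox gene of ventral forebrain progenitors, also rose in both lines. It read -5.09, -5.29 and -5.18 with vehicle and -4.68, -4.40 and -4.25 with TGFb in control cells, a rise of 0.74 ± 0.13 (adjusted p = 0.00268). In knockdown cells it read -4.63, -4.89 and -4.88 with vehicle and -4.25, -3.97 and -4.14 with TGFb, a rise of 0.68 ± 0.13 (adjusted p = 0.00535). Its genomic neighbour Dlx1 changed by -0.04 ± 0.11 and -0.28 ± 0.11, and neither value passed. Dlx5 gave 0.30 ± 0.33 and 0.31 ± 0.33 and was not called. Other ventral forebrain genes did not share the direction of Dlx2, since Gsx1 fell by 1.59 and 1.28 and Olig2 fell by 0.88 and 0.48 in control and knockdown cells.

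Prrx1 and Hoxa3 fell with TGFb in control cells, and Hoxb2 rose. Prrx1, a homeobox gene of mesenchyme, read 0.70, 0.70 and 0.62 with vehicle and 0.13, 0.24 and 0.42 with TGFb, a change of -0.41 ± 0.09 (adjusted p = 0.00922). In knockdown cells its change was -0.29 ± 0.09, with an adjusted p of 0.0679, while its second probe, with each probe tested on its own, gave -0.30 ± 0.08 (adjusted p = 0.035), a call. Hoxa3, a gene of hindbrain and pharyngeal arches, read -2.56, -2.63 and -2.62 with vehicle and -2.98, -2.86 and -2.87 with TGFb. That change of -0.30 ± 0.06 (adjusted p = 0.00925) was lost with normexp correction, with scaling to the median and on the authors' values (adjusted p = 0.0751, 0.0727 and 0.0881), and with only the compared arrays fitted (adjusted p = 0.0559). In knockdown cells Hoxa3 changed by -0.14 ± 0.06 and was not called.

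Hoxb2, another hindbrain gene, read -3.97, -4.03 and -3.92 with vehicle and -3.82, -3.62 and -3.43 with TGFb in control cells. The groups did not overlap, but the rise of 0.35 ± 0.10 (adjusted p = 0.0460) was lost in 11 of the 12 fits that each left out 1 array. In knockdown cells it read -4.06, -4.16 and -4.09 with vehicle and -3.69, -3.51 and -3.61 with TGFb, a rise of 0.50 ± 0.10 (adjusted p = 0.00659) that was kept in all 12 such fits. With slide as a fixed block the latter was 0.33 with an adjusted p of 0.0562. Hoxb4 and Hoxd8 were lower on every treated array of control cells, by -0.37 ± 0.11 and -0.45 ± 0.15, and neither passed (adjusted p = 0.0707 and 0.101).

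**Figure D3:**
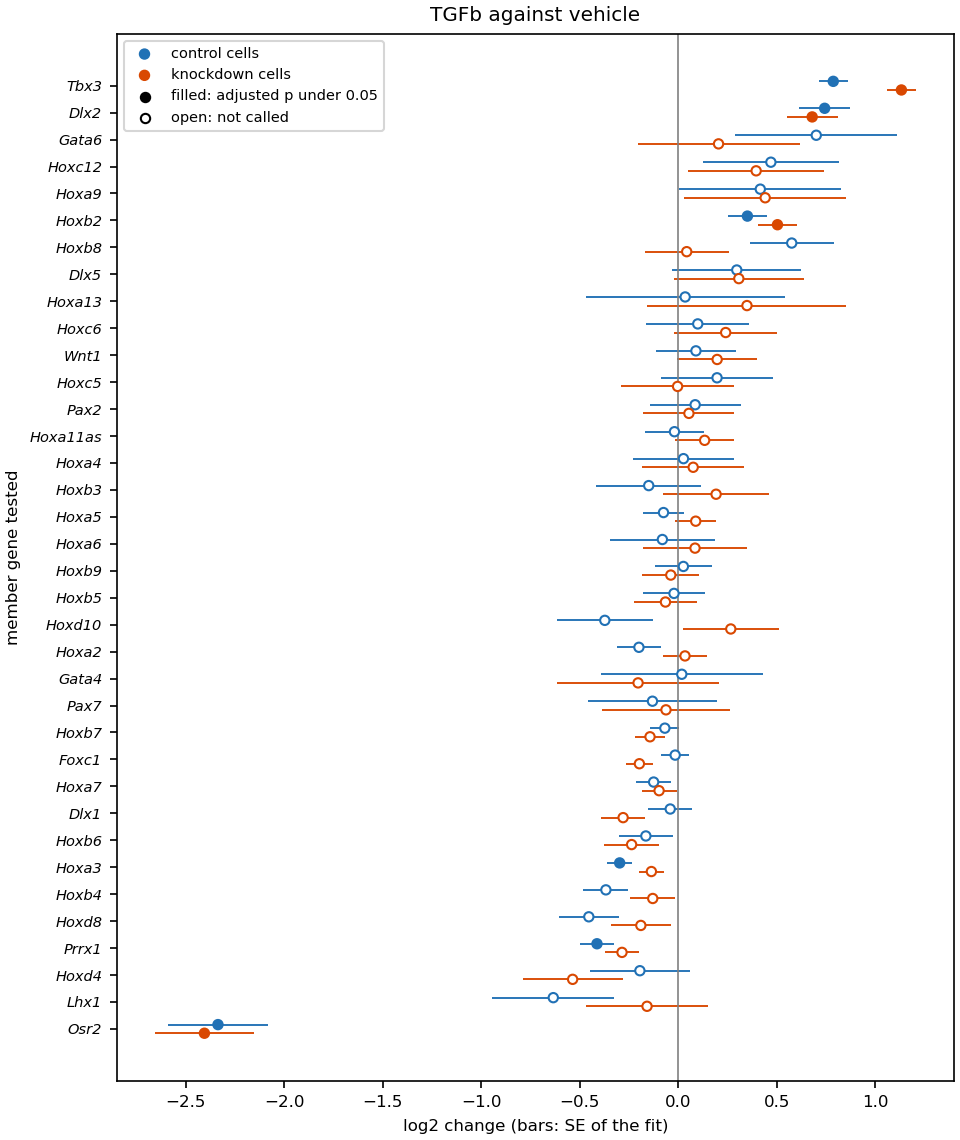
Log2 change with TGFb for 36 of the tested members, in control cells (blue) and knockdown cells (orange), with bars for the SE of the fit and filled points for an adjusted p under 0.05. Most members lie near 0, with Tbx3 at 0.79 and 1.13 and Osr2 at -2.34 and -2.41.

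The TGFb responses of the members were not shown to differ between the lines. No member was called for the difference of the responses in limma (0 of 37, against 0.087% of all genes, 0.0456% larger and 0.0414% smaller in knockdown cells), and 1 member had an unadjusted p under 0.05. That member was Tbx3, whose rise was larger in knockdown cells by 0.35 ± 0.10 (adjusted p = 0.573). For Osr2 the difference was -0.07 ± 0.36 and for Dlx2 it was -0.06 ± 0.18. The 95% intervals of those differences ran from -0.85 to 0.71 for Osr2 and from -0.47 to 0.34 for Dlx2, and the Osr2 value in treated control cells is only a bound.

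The lines differed in 13 members without TGFb and 12 with it. Without TGFb the 13 called of 37 members made up 35.1%, against 27.8% of all genes, with 10 higher and 3 lower. With TGFb the 12 made up 32.4%, against 29%, with 9 higher and 3 lower. Higher calls made up 27% and 24.3% of the members, against 12.51% and 12% of all genes, and lower calls made up 8.11% in both cases, against 15.3% and 17%. The median change of the members was 0.12 without and 0.23 with TGFb, beside -0.02 and -0.01 over all genes. The arrays of the lines did not overlap for 17 members without and 16 with TGFb, against 41.1% and 38.7% of all genes. The comparisons use different arrays, but the same hairpin and line.

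**Figure D4:**
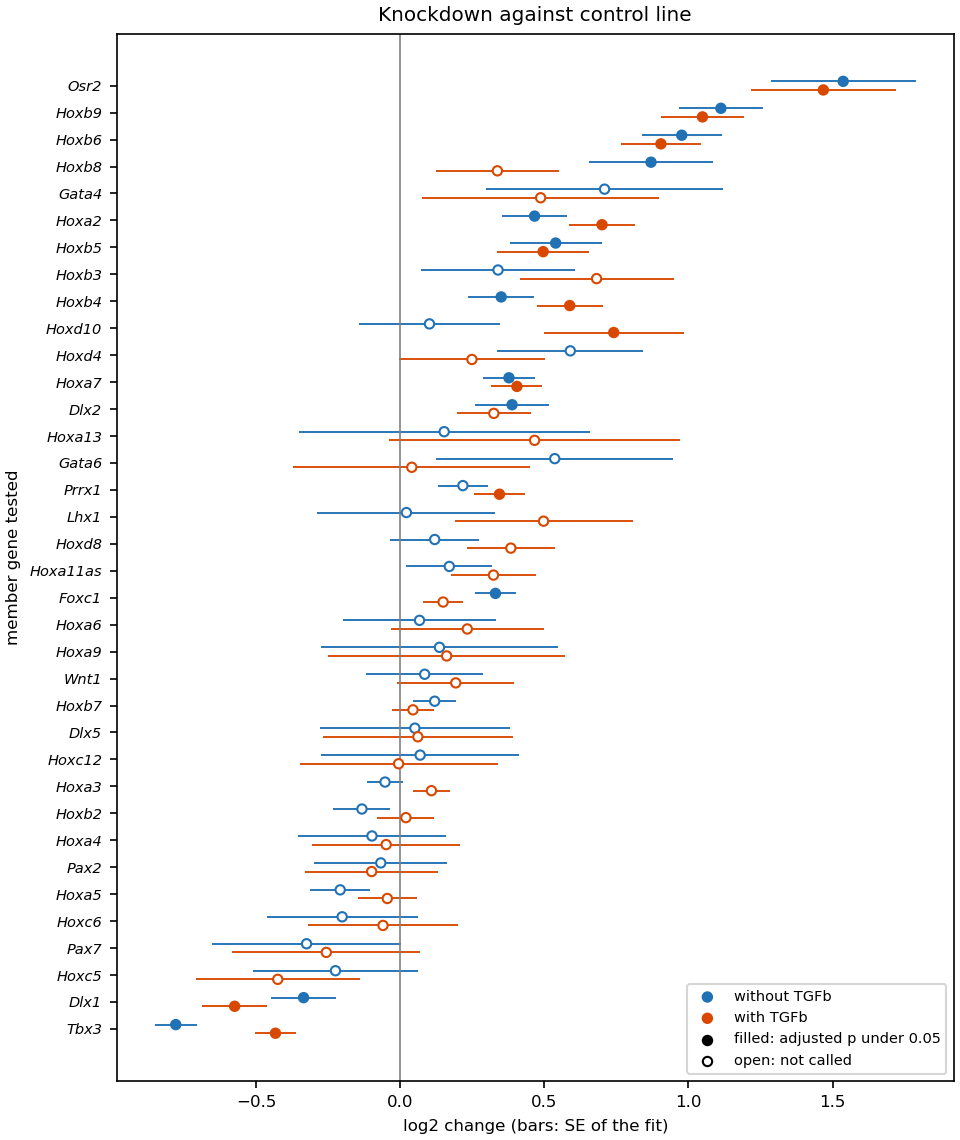
Log2 change of the knockdown line against the control line for 36 of the tested members, without TGFb (blue) and with TGFb (orange), with bars for the SE of the fit and filled points for an adjusted p under 0.05. Osr2, Hoxb9 and Hoxb6 lie at the top, and Tbx3 and Dlx1 at the bottom.

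HoxB genes were called higher more often than lower in the knockdown line. Of 8 HoxB genes tested, 5 were called higher without TGFb and 4 with it, against 12.51% and 12% of all genes. None of the 8 was called lower in either limma comparison, against 15.3% and 17% of all genes. Their median change was 0.44 without and 0.54 with TGFb. The genes called, Hoxb4, Hoxb5, Hoxb6, Hoxb8 and Hoxb9, are known from the patterning of the caudal hindbrain and spinal cord. Of the markers of hindbrain and spinal cord, Egr2 was not called, with 0.23 ± 0.15 without and -0.07 ± 0.15 with TGFb. Whether the share of such cells differed between the lines was not tested.

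Hoxb9, at chr11:96137748-96137807 (mm9), read -5.14, -5.03 and -5.21 in control cells and -4.11, -4.02 and -3.92 in knockdown cells without TGFb. With TGFb it read -4.88, -5.46 and -4.96 in control cells and -4.21, -3.95 and -4.01 in knockdown cells. All 6 knockdown arrays were above all 6 control arrays. The difference was 1.11 ± 0.14 (adjusted p = 0.000170) without TGFb, a fold of 2.16, and 1.05 ± 0.14 (adjusted p = 0.000252) with it.

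Hoxb6, at chr11:96162563-96162622, read -3.53, -3.31 and -3.49 in control cells and -2.68, -2.28 and -2.43 in knockdown cells without TGFb. With TGFb the values were -3.44, -3.51 and -3.87 against -2.50, -2.80 and -2.80. Again the 6 arrays of each line did not overlap. The difference was 0.98 ± 0.14 (adjusted p = 0.000308) and 0.90 ± 0.14 (adjusted p = 0.000512).

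Hoxb4, whose promoter is printed above, was higher by 0.35 ± 0.11 (adjusted p = 0.0407) without TGFb and by 0.59 ± 0.11 (adjusted p = 0.00246) with it. Its values were -4.63, -4.97 and -4.79 in control cells and -4.26, -4.51 and -4.57 in knockdown cells with vehicle, and -5.22, -5.21 and -5.06 against -4.53, -4.59 and -4.61 with TGFb. All 6 knockdown arrays again lay above all 6 control arrays. The call without TGFb was lost in 7 of 12 fits that left out 1 array, and the call with TGFb in none.

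Hoxb5, a gene of the cervical spinal cord, gave values of -7.08, -6.82 and -6.63 in control cells and -6.45, -6.15 and -6.31 in knockdown cells without TGFb. With TGFb it read -7.05, -6.79 and -6.75 against -6.44, -6.40 and -6.27. The arrays of the lines did not overlap, and the differences were 0.54 ± 0.16 (adjusted p = 0.0261) and 0.50 ± 0.16 (adjusted p = 0.0371). With normexp correction they were 0.11 and 0.10 (adjusted p = 0.532 and 0.534), and on the authors' values 0.16 and 0.13 (adjusted p = 0.150 and 0.252).

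Hoxb8, a trunk-level gene, read -4.58, -4.41 and -4.69 in control cells with vehicle and -4.30, -3.22 and -3.55 in knockdown cells. The difference of 0.87 ± 0.21 (adjusted p = 0.0101) came with a wide spread among the knockdown arrays, and within slides it was 0.28, 1.19 and 1.14. With TGFb the values were -3.94, -3.96 and -4.06 against -3.67, -3.77 and -3.50, a difference of 0.34 ± 0.21 that was not called (adjusted p = 0.281). The test of the difference between these contrasts gave -0.53 ± 0.30 (adjusted p = 0.964). With normexp correction the first difference was 0.62 with an adjusted p of 0.0501.

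Not every HoxB gene differed. Hoxb7 lies between Hoxb6 and Hoxb8, and its change was 0.12 ± 0.07 without TGFb (95% interval -0.04 to 0.28) and 0.04 ± 0.07 with it (-0.12 to 0.21). Hoxb2 gave -0.13 ± 0.10 and 0.02 ± 0.10. The Hoxb3 probe used for the gene gave 0.34 ± 0.27 and 0.68 ± 0.27, while its other kept probe gave 0.16 ± 0.18 and -0.09 ± 0.18, and none of these passed.

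**Figure D5:**
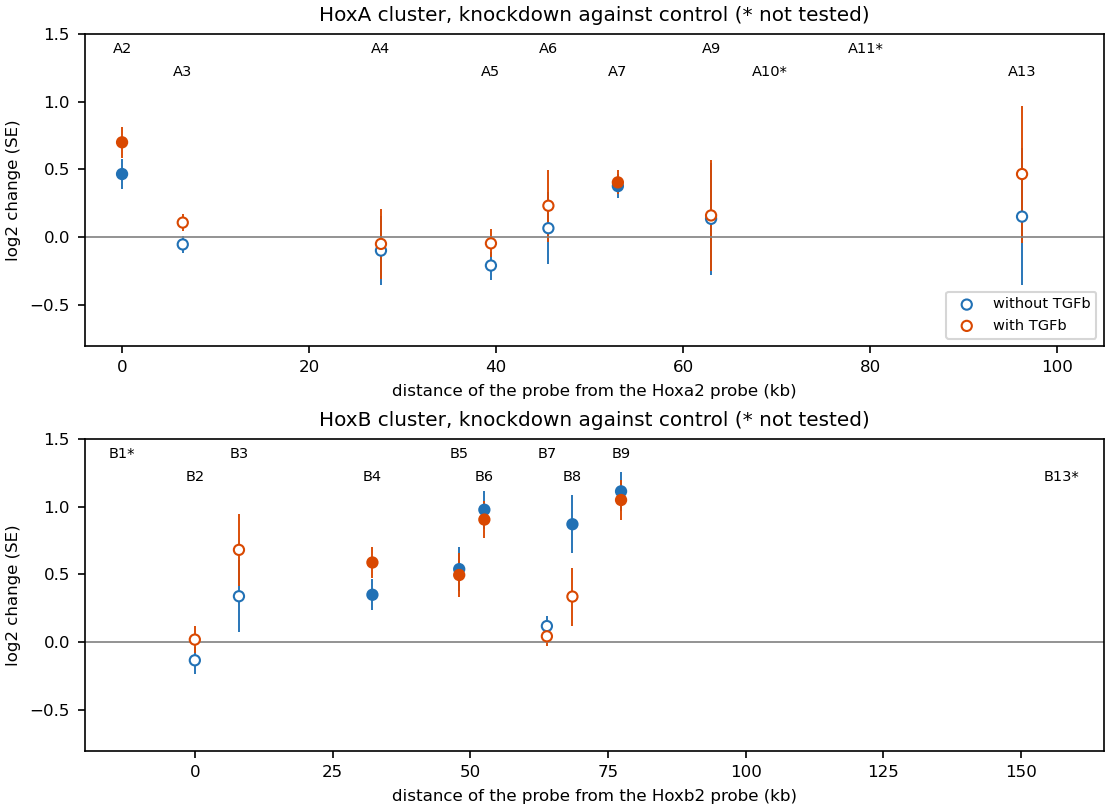
Log2 change of the knockdown line against the control line along the HoxA and HoxB clusters, by distance of each probe from the probe of paralog 2 in kb, without TGFb (blue) and with TGFb (orange). Bars are the SE of the fit, filled points passed the test, and genes marked with an asterisk were not tested. In HoxB the genes from Hoxb4 to Hoxb9 lie above 0 and Hoxb7 near it, while in HoxA Hoxa2 and Hoxa7 lie above 0 with genes near 0 between them.

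Fewer HoxA genes were called higher. Of 9 tested, 2 were called higher in each knockdown comparison, against 12.51% of all genes without TGFb and 12% with it. Lower calls within HoxA are not reported here. The genes called higher were Hoxa2 and Hoxa7, which are not neighbours.

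Hoxa2, which patterns the hindbrain, was higher in the knockdown line. Its values were -5.95, -5.92 and -5.92 in control cells and -5.35, -5.47 and -5.57 in knockdown cells without TGFb, and -6.20, -5.97 and -6.21 against -5.53, -5.41 and -5.35 with it. The lines did not overlap, and the difference was 0.47 ± 0.11 (adjusted p = 0.00958) and 0.70 ± 0.11 (adjusted p = 0.000749). With normexp correction the difference without TGFb was 0.16 (adjusted p = 0.118).

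Hoxa7, a trunk-level gene, was higher by 0.38 ± 0.09 (adjusted p = 0.00792) and 0.40 ± 0.09 (adjusted p = 0.00503). It read -0.13, -0.33 and -0.30 in control cells and 0.27, 0.05 and 0.06 in knockdown cells without TGFb, and -0.52, -0.36 and -0.25 against -0.04, -0.03 and 0.15 with it. The lines did not overlap here either. Of the other HoxA genes, Hoxa3, Hoxa4, Hoxa5, Hoxa6, Hoxa9 and Hoxa13 were not called, and their changes lay between -0.21 and 0.47. Over the members, 6 genes had all knockdown arrays above all control arrays (Hoxa2, Hoxa7, Hoxb4, Hoxb5, Hoxb6 and Hoxb9), a pattern held by 9.07% of all genes tested. Dlx1 had the reverse pattern, which 11.2% of all genes held.

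In HoxC and HoxD 1 gene was called. Hoxd10, a limb and lumbar spinal gene, read -8.31, -8.13 and -7.64 in control cells with TGFb and -7.64, -7.32 and -6.91 in knockdown cells. The difference was 0.74 ± 0.24 (adjusted p = 0.0406), and it was lost in 9 of 12 fits that left out 1 array. On the authors' values it was 0.11 (adjusted p = 0.181), and with normexp correction 0.08 (adjusted p = 0.569). Without TGFb the control arrays read -7.56, -7.83 and -7.57 and the knockdown arrays -7.34, -7.67 and -7.65, which overlapped. Hoxd4 and Hoxd8 gave 0.59 ± 0.25 and 0.12 ± 0.15 without TGFb, Hoxc5, Hoxc6 and Hoxc12 gave -0.22 ± 0.29, -0.20 ± 0.26 and 0.07 ± 0.34, and none passed in either comparison.

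The mesenchymal factors moved in opposite directions. Osr2, with the values given for TGFb, was higher in the knockdown line by 1.54 ± 0.25 (adjusted p = 0.000828) without TGFb, a fold of 2.90. With TGFb the fitted difference was 1.47 ± 0.25 (adjusted p = 0.00109). As no control array was well above background there, the bound on these signals was at least 1.67-fold higher in the knockdown. With normexp correction the difference with TGFb was 0.14 (adjusted p = 0.401), so this bound does not hold under that correction either. Tbx3 was lower in the knockdown by -0.78 ± 0.07 (adjusted p = 1.48e-05) and -0.43 ± 0.07 (adjusted p = 0.000942). For both genes the groups of the lines did not overlap under either treatment.

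Foxc1, a forkhead factor of meninges and mesoderm, read 1.91, 1.75 and 1.75 in control cells and 2.23, 2.04 and 2.12 in knockdown cells without TGFb, a difference of 0.33 ± 0.07 (adjusted p = 0.00420). With TGFb it read 1.65, 1.84 and 1.87 against 1.90, 1.99 and 1.92, a difference of 0.15 ± 0.07 that was not called. Prrx1 read 1.02, 0.77 and 0.88 in knockdown cells with vehicle and 0.47, 0.68 and 0.67 with TGFb, so that it was higher by 0.34 ± 0.09 (adjusted p = 0.0113) with TGFb and by 0.22 ± 0.09 (adjusted p = 0.0903) without. A second Prrx1 probe gave 0.17 ± 0.08 with TGFb (adjusted p = 0.133). Of the 4 tested fibroblast and meningeal markers, Foxc1 was called higher and Col1a1 lower (-0.48) without TGFb, and none was called with TGFb. Their signals, summed on a linear scale relative to the 75th percentile, ran from 3.41 to 3.82 in control cells without TGFb. In knockdown cells without TGFb they ran from 4.18 to 4.75. Nearly all of this sum is Foxc1, so it repeats the Foxc1 difference and hardly reads the other markers. The log2 means in control cells with vehicle were 1.80 for Foxc1, -5.92 for Col1a1, -4.95 for Col1a2 and -7.34 for Dcn. The part of such cells in these differences was not tested.

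Dlx1 and Dlx2, which lie side by side on chromosome 2, differed in direction. Dlx1 read -4.29, -4.10 and -4.10 in control cells and -4.41, -4.48 and -4.60 in knockdown cells without TGFb, and -3.99, -4.26 and -4.37 against -4.85, -4.66 and -4.83 with it. All 6 knockdown arrays were below the 6 control arrays, and the difference was -0.34 ± 0.11 (adjusted p = 0.0462) and -0.57 ± 0.11 (adjusted p = 0.00262). Dlx2 was higher by 0.39 ± 0.13 (adjusted p = 0.0445) without TGFb and by 0.32 ± 0.13 (adjusted p = 0.0852) with it. The calls of Dlx1 and Dlx2 without TGFb were each lost in 8 of 12 fits that left out 1 array.

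The remaining tested members were called in no comparison, although several were detected on every array. Among factors of midbrain, hindbrain and neural tube, Wnt1 averaged -2.31 ± 0.22, -2.22 ± 0.29, -2.23 ± 0.32 and -2.03 ± 0.30 in control cells with vehicle and TGFb and knockdown cells with vehicle and TGFb. Pax2, in the same order, averaged -6.35 ± 0.29, -6.26 ± 0.38, -6.41 ± 0.31 and -6.36 ± 0.16, and Pax7 averaged -6.80 ± 0.22, -6.93 ± 0.39, -7.12 ± 0.58 and -7.19 ± 0.48. For none of the 3 did a difference between groups pass the test.

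The endodermal and cardiac factor Gata4 averaged -7.34 ± 0.56, -7.32 ± 0.84, -6.63 ± 0.45 and -6.83 ± 0.24 in that order of groups, and Gata6 averaged -6.49 ± 0.84, -5.79 ± 0.31, -5.95 ± 0.51 and -5.75 ± 0.52. Their knockdown differences without TGFb, 0.71 ± 0.41 and 0.54 ± 0.41, were as large as those of some called Hox genes, but the arrays overlapped. Dlx5 averaged -4.02 ± 0.45, -3.73 ± 0.55, -3.97 ± 0.45 and -3.66 ± 0.41, and Lhx1 averaged -5.45 ± 0.17, -6.09 ± 0.51, -5.43 ± 0.52 and -5.59 ± 0.41.

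Among Hox genes without a call, Hoxa4 averaged -5.64 ± 0.39, -5.61 ± 0.35, -5.74 ± 0.43 and -5.66 ± 0.13. Hoxa5 averaged -2.38 ± 0.05, -2.46 ± 0.23, -2.59 ± 0.10 and -2.50 ± 0.08. Hoxa6 averaged -5.58 ± 0.16, -5.66 ± 0.54, -5.51 ± 0.37 and -5.43 ± 0.27. None of these 3 genes passed, although they lie between Hoxa2 and Hoxa7, which did. Hoxb7 averaged -3.06 ± 0.11, -3.13 ± 0.04, -2.94 ± 0.05 and -3.08 ± 0.09. Hoxa9 and Hoxa13 averaged -6.68 ± 0.69 and -8.23 ± 0.42 in control cells with vehicle, where Hoxa13 was detected on all 3 arrays, as in knockdown cells with TGFb.

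Hoxb3 averaged -6.58 ± 0.45, -6.74 ± 0.32, -6.25 ± 0.27 and -6.05 ± 0.35. Hoxd4 averaged -6.22 ± 0.33, -6.42 ± 0.28, -5.63 ± 0.35 and -6.17 ± 0.37, and Hoxd8 averaged -5.32 ± 0.12, -5.78 ± 0.31, -5.21 ± 0.10 and -5.40 ± 0.12. HoxC was represented by Hoxc6, which averaged -6.73 ± 0.19, -6.63 ± 0.41, -6.93 ± 0.47 and -6.69 ± 0.19, and by Hoxc5 and Hoxc12 near the floor. Hoxc5 averaged -7.77 ± 0.34 and -7.58 ± 0.34 in control cells and -8.00 ± 0.22 and -8.00 ± 0.44 in knockdown cells, in which it filled no group. Hoxc12 averaged -7.84 ± 0.54, -7.37 ± 0.36, -7.77 ± 0.29 and -7.37 ± 0.55.

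Nearly all genes of the Polycomb complexes were on. All 11 PRC2 genes and 19 of 20 PRC1 genes were detected in the 4 groups, the exception being Cbx7, which was silent. Of the PRC2 genes 0 were called higher and 4 lower in the knockdown without TGFb (Ezh1 at -0.95, Aebp2 at -0.96, Rbbp7 at -0.25 and Eed at -0.19). With TGFb 0 were higher and 6 lower, namely Ezh1, Aebp2, Eed, Jarid2, Mtf2 and Phf19. The methyltransferase subunit Ezh2 gave -0.07 ± 0.05 and -0.08 ± 0.05 and was not called, while Ezh1, its less active relative, and Aebp2, an accessory subunit, were also the lowest of the list with TGFb (-0.88 ± 0.08 and -1.01 ± 0.06). Of 19 PRC1 genes tested, 3 were higher and 5 lower without TGFb and 2 were higher and 6 lower with it. Calls made up 36.4% and 54.5% of the PRC2 genes and 42.1% in both cases of the PRC1 genes, against 27.8% and 29% of all genes. Their median changes were -0.19 and -0.18 for PRC2 and -0.04 and -0.03 for PRC1, beside -0.02 and -0.01 over all genes.

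TGFb changed some Polycomb genes in both lines. Pcgf2 (Mel18), a PRC1 subunit, rose by 2.25 ± 0.13 in control cells (adjusted p = 3.63e-07) and by 2.51 ± 0.13 in knockdown cells (adjusted p = 1.62e-07). In all, 5 PRC1 genes rose and 2 fell in control cells, and 4 rose and 3 fell in knockdown cells. In PRC2 1 gene rose and 3 fell in control cells, and 0 rose and 3 fell in knockdown cells. Each line thus had 36.8% of the PRC1 genes called, and PRC2 had 36.4% and 27.3%, against 10.2% and 9.49% of all genes. Of the other demethylases, Kdm6a was not called in any comparison. Of 9 trithorax genes, which maintain Hox expression, 1 was higher and 1 lower in the knockdown without TGFb, 1 higher and 2 lower with TGFb, and for TGFb limma called 0 in either line, with 2 in each at an unadjusted p under 0.05. The knockdown calls made up 22.2% and 33.3% of the trithorax genes, against 27.8% and 29% of all genes.

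The cofactors that bind DNA with Hox proteins were all detected. Of 9 tested, 3 were higher and 3 lower in the knockdown without TGFb, and 4 were higher and 3 lower with it, which is 66.7% and 77.8% against 27.8% and 29% of all genes. Meis3, a cofactor known from the hindbrain, was higher by 0.80 ± 0.08 (adjusted p = 1.64e-05) and 0.73 ± 0.08 (adjusted p = 3.53e-05). Pbx3 was higher by 0.53 ± 0.05 and 0.36 ± 0.05, and Pbx2 was lower by -0.33 ± 0.05 and -0.47 ± 0.05. With TGFb, 2 cofactors rose and 2 fell in each line (44.4%, against 10.2% and 9.49% of all genes), with Meis2 at -0.56 ± 0.07 in control cells and -0.41 ± 0.07 in knockdown cells.

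Arrays that shared a slide deviated together, so differences between the lines were read within slides as well. The vehicle arrays of both lines lay on slides 1, 2 and 3, and the TGFb arrays of control cells on slides 2, 3 and 4. In knockdown cells the TGFb arrays lay on slides 3 and 4, so only slide 3 held both treatments. Treatment and slide were thus partly mixed, and sizes within slides are given below for the lines only. The groups of every called member did not overlap, which fixes the sign within a slide, so only the sizes are given. Within slides Hoxb9 differed by 1.03, 1.02 and 1.29 without TGFb and by 1.26 and 0.98 with it. Hoxb6 differed by 0.85, 1.02 and 1.06 without TGFb and by 1.00 and 1.07 with it. With slide as a fixed block, the calls of Hoxb5 and Hoxd10 with TGFb (adjusted p = 0.0540 and 0.0780) were lost beside that of Hoxb2 in knockdown cells.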

How the data were processed

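Expression was measured on 1-colour Agilent mouse arrays in 12 samples, 4 groups of 3. Cy3 target was made from 500 ng of total RNA with oligo-dT priming, per the labels' protocols. Spots were quantified in Agilent Feature Extraction 10.7.3.1, per the file headers. In those headers probe positions are mm9, and the deposited processed signal is a background-corrected intensity on a linear scale. The authors also deposited processed log2 values, used as an alternative, whose background correction is not given in the sources used here.

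Control spots and spots with outlier marks were left out, spots of a probe were averaged, and log2 signals were set relative to the 75th percentile of each array. Between 70.2% and 78.4% of probes were well above background per array, the number of arrays limits the precision, and replicates correlated across genes with r from 0.994 to 0.998. A probe was kept (29968 in all) if some group had it well above background on each of its 3 arrays, each gene took its kept probe with the highest mean, and 24146 genes were tested. Names came from RefSeq accessions for 26055 probes and from the file for 13374. For the members the array's own names were kept, and Hoxa11as was matched to the RefSeq entry of its updated symbol.

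Groups were compared in 1 fit over the 12 arrays with limma 3.58.1 (R 4.3.3, moderated with a trend, 8 residual degrees of freedom), two-sided, with Benjamini-Hochberg adjustment over all genes and a threshold of 0.05. SE values are those of the fit. The procedure was tested on simulated data with independent noise on each array. Those data held no slide effect, so the test does not cover the shared deviations of arrays on a slide. Members called in any of the 5 comparisons were named with all values, other detected members with group means, and silent ones by name. Counts cover all members, and some single genes are not reported here by name. The members and lists were chosen with earlier results of these data known. Alternatives were normexp correction (offset 50), other normalizations, filters, thresholds, probe rules, priors, blocks for slide or replicate number, and the authors' values, and arrays were left out singly.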

Additional observations from a re-analysis of the deposited data

How the results depend on the processing

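No result reversed its direction under any alternative run. Of the counts of members called, 2 moved by more than 1.5 times: with TGFb in control cells 3 members were called with normexp correction, and in the knockdown without TGFb 8 were at an adjusted p under 0.01. Leaving out 1 array at a time gave 5 to 6 members called for TGFb in control cells, 4 to 5 in knockdown cells, 9 to 14 for the knockdown without TGFb and 10 to 13 with it. Of the 37 single-gene changes followed, the 2 of Kdm6b included, calls were kept for 28 with normexp, 31 with quantile normalization, 29 with median scaling, 32 on the authors' values, 31 without the filter, 37 with slide as a random block and 34 with slide as a fixed block. Over all genes, the calls for TGFb in control cells numbered 2451 in the fit reported and 1638 with median scaling, those in knockdown cells 2291 and 1470, and those for the knockdown without TGFb 6722 and 4344. At an adjusted p under 0.01 the counts were 1571, 1391, 4360 and 4568, the last against 6998 with TGFb. For the difference of the responses 21 genes were called, against 7 with median scaling, 45 and 95 with slide as a fixed and a random block, and 4 and 46 at thresholds of 0.01 and 0.1, and 0 members in each. Leaving out 1 array gave 4 to 27 genes for it, with 4 without control vehicle replicate 3 or knockdown TGFb replicate 3, 6 without control TGFb replicate 3, 7 without knockdown TGFb replicate 2, 8 without knockdown vehicle replicate 2, 11 without knockdown vehicle replicate 3 and 13 without control TGFb replicate 1 or 2.

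The replicate numbers did not pair the arrays, since the deviations of same-numbered arrays correlated over 0.1 in 4 of 18 pairs, against 12 of 12 pairs that shared a slide. With replicate block 32 of the 37 calls were kept, and 5, 4, 10 and 11 members were called for TGFb in control and knockdown cells and for the knockdown without and with TGFb. The block gave 11 genes for the difference of the responses. Dim members limit these results. A probe near background has a bound rather than a level, and Osr2, Hoxb5 and Hoxd10 depend on the background correction. A median SE of 0.10 between groups over all genes sets the size of change that 3 arrays a group can show.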

Other observations

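Genes known to act upstream of Hox genes, chiefly those of retinoic acid signalling, were read in the same fit. TGFb raised 4 of the 13 tested and lowered 3 in control cells, and raised 3 and lowered 2 in knockdown cells, which is 53.8% and 38.5% against 10.2% and 9.49% of all genes. Rara, a retinoic acid receptor, rose by 1.40 ± 0.07 in control cells (adjusted p = 5.80e-08) and by 1.59 ± 0.07 in knockdown cells (adjusted p = 2.30e-08), and Cyp26b1, which degrades retinoic acid, rose by 1.56 ± 0.12 and 0.92 ± 0.12. Rarg fell by 0.51 and 0.60, and Gdf11, a TGFb family ligand that sets posterior Hox domains, fell by 0.61 and 0.53. In the knockdown line 4 of the 13 were higher and 1 lower under each treatment (38.5%, against 27.8% and 29% of all genes). Without and with TGFb, Cyp26b1 was higher by 1.18 ± 0.12 and 0.54 ± 0.12, and Rarb by 0.82 ± 0.07 and 0.95 ± 0.07. Rxra was lower by -0.46 ± 0.13 and -0.41 ± 0.13. The caudal genes Cdx2 and Cdx4, Wnt3a, Cyp26a1 and Cyp26c1 were silent on all 12 arrays.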
